A study of Homo sapiens with 6 samples.

Results

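Death receptors are cell surface proteins of the tumour necrosis factor (TNF) receptor superfamily that can start apoptosis from outside the cell. The 10 genes described here encode 6 receptors of ligands that kill cells, FAS, TNFRSF10A, TNFRSF10B, TNFRSF10C, TNFRSF10D and TNFRSF1A, the related receptor TNFRSF12A, the adaptor FADD, the protease caspase-8 (CASP8) and its regulator CFLAR. They were chosen by symbol among the 24462 symbols of the count files, and all 10 were found. The study compared glutamine-depleted H460 cells (3 libraries) with glutamine-replete H460 cells (3 libraries). The depleted cells spent 24 h in RPMI 1640 medium free of glutamine with 10% dialyzed fetal bovine serum. The replete cells are labelled only as glutamine-replete, and the labels give RPMI 1640 with 10% fetal bovine serum and antibiotics as the routine medium, without saying whether the serum of the replete cells was dialyzed over the same hours. The comparison describes 1 cell line. H460 is an established human large-cell lung carcinoma line. RNA was read by 3′-end mRNA sequencing, which counts the polyadenylated ends of transcripts and does not tell isoforms with the same end apart.

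When a trimeric ligand binds FAS, TNFRSF10A (DR4) or TNFRSF10B (DR5), the receptor's death domain recruits FADD, and FADD in turn gathers procaspase-8, which becomes active on pairing and cleaves executioner caspases and the BCL2 family protein BID. CFLAR encodes c-FLIP, a caspase-8 relative without protease activity that joins the same complex and limits or tunes caspase-8. TNFRSF10C and TNFRSF10D bind the ligand TRAIL without a working death domain and are called decoys, TNFRSF1A (TNFR1) signals first through TRADD and RIPK1 to NF-κB, and TNFRSF12A (Fn14) binds the ligand TWEAK and has no death domain.

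The libraries held between 7550849 and 10914899 counts. Levels are scaled CPM, that is counts scaled to a common library size (CPM) after adjustment by trimmed-mean (TMM) factors, and 3 counts, which is as much as a count of 0 can hide, stood for 0.296 to 0.375 scaled CPM (counting error only). Depleted replicate 2 stood apart from the other depleted libraries, with a chi-square, divided by its degrees of freedom, of 17.97 against replicate 1 and 10.9 against replicate 3, compared with 3.71 between replicates 1 and 3 and 1.496 to 1.99 among the replete libraries. The epithelial keratin genes KRT8, KRT18 and KRT19 were well measured in every library, whereas the epithelial genes EPCAM and CDH1 had at most 4 and 1 counts. The summed level of 5 epithelial markers was 820.5 to 962.0 scaled CPM in depleted and 1918 to 1927 in replete libraries. Most of that difference was in KRT19, at 354 ± 53.9 in depleted and 1295 ± 6.69 in replete cells, whereas KRT18, at 426 ± 31.5 and 443 ± 1.80 (SD, n = 3 each), did not pass (edgeR adjusted p = 0.461). The sums were 0.872 to 1.38 and 1.94 to 3.75 for 5 blood markers, and 0 to 0.125 and 0.469 to 0.614 for 4 endothelial markers, of which CDH5 and VWF were at 0 throughout. The sum of 5 fibroblast markers was 35.8 to 117 in depleted and 23.7 to 36.7 in replete libraries, the highest value being that of depleted replicate 3, where COL1A1 had 490 counts. The part of these markers in the results was not tested.

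Most of the tested receptor genes and the gene of the caspase-8 regulator were higher without glutamine, while neither the adaptor nor the protease gene passed the test. Of the 10 genes, 9 had enough counts to be tested: FAS, TNFRSF10A, TNFRSF10B, TNFRSF10D, TNFRSF12A and CFLAR rose, TNFRSF1A fell, and CASP8 and FADD did not pass the quasi-likelihood test of edgeR at an adjusted p of 0.05. In the whole table, 39.1% of the 12739 genes tested rose, 39.4% fell and 78.6% passed in either direction, so the share of the 9 that passed, 7, is near that of all genes. The median log2 fold change was 1.33 over the 9 tested genes and -0.02 over all genes tested. With library totals in place of trimmed-mean factors the median of all genes was -0.25, and every log2 fold change below is relative to the trimmed-mean scaling. In bulk RNA, fewer cells that express a gene and less of its RNA per cell cannot be told apart. Separate cultures behind the 3 libraries of a group are not mentioned in the labels, and p-values therefore reflect the spread among these libraries, which may be technical.

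Start regions of 2 genes that rose and of the gene that fell are shown as the places where the motif matches described next lie or were looked for. From the RefSeq promoter table (GRCh38.p14, 250 bases before to 50 after a transcription start), 12 windows were used. They belong to 5 of the 10 genes, FAS, CFLAR, CASP8, FADD and TNFRSF1A. No start region of the other genes was searched, so the motif counts do not cover all 10 genes. Printed 5′ to 3′ on the strand of the gene, the windows at one start of FAS (chr10:88991181-88991480, plus strand), one start of CFLAR (chr2:201118466-201118765, plus strand) and the start of TNFRSF1A (chr12:6342027-6342326, minus strand) read as follows, with matches to any of the motifs searched in capitals.
FAS: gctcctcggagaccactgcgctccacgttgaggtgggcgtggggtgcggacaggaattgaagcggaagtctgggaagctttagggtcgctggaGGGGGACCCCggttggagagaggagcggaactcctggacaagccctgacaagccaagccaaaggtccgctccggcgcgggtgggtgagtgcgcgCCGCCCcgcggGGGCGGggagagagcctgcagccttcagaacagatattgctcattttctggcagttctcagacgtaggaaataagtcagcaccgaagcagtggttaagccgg
CFLAR: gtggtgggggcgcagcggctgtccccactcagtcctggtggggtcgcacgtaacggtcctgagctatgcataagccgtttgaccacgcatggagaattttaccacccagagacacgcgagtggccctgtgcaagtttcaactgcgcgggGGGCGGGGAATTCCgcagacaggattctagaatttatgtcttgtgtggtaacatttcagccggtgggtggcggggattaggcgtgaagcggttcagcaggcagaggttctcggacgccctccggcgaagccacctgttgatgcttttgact
TNFRSF1A: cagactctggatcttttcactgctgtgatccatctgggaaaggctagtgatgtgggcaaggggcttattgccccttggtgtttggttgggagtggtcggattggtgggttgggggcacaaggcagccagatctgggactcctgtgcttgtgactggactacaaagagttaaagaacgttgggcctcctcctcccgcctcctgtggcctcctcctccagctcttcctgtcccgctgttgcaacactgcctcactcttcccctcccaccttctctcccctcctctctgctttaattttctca

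The motifs were searched on both strands. A match to the NF-κB motif, searched as its 10-letter consensus, began 157 bases before the FAS start and 97 bases before the CFLAR start, and these were 2 of the 12 windows, against 5.91% of 35116 promoter windows in the table. In the CFLAR window this match overlaps a match to the GC box (GGGCGG), and the FAS window holds 2 further GC box matches. The GC box was found in 7 of the 12 windows and in 45.0% of all windows, and the AP-1 motif TGANTCA in 5 of the 12 (at other starts of FAS and CFLAR, at 2 starts of CASP8 and at FADD) and in 7.71% of all. No window held the TEAD motif GGAATG (14.03% of all windows), the amino acid response motif TGATGNAAN (3.61%) or the CRE TGACGTCA (1.85%), and neither the TNFRSF1A window nor 1 of the 4 CFLAR windows held a match to any motif named here. A p53 motif was searched as well and was in none of the 12 windows. Only 6 of the 35116 windows held it, so its absence says little. The other FAS and CFLAR windows held no NF-κB match. The windows of 1 gene overlap or share a neighbourhood and are not independent, the FAS and CFLAR windows printed were chosen because they hold the NF-κB match, and a match is a string of letters, not evidence that a factor binds.

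FAS encodes the receptor of FAS ligand. FAS stood at 29.5, 21.5 and 31.7 scaled CPM in depleted replicates 1, 2 and 3, against 4.59, 4.69 and 2.58 in replete replicates 1, 2 and 3. Every depleted library lay above every replete one, and depleted replicate 2 was the lowest of its group. The means were 27.6 ± 5.34 in depleted and 3.95 ± 1.19 in replete cells (SD, n = 3 each), a log2 change of 2.79 (SE 0.21, edgeR adjusted p = 8.12e-08), which was number 509 from the top among the 12739 genes. A FAS exon overlaps an exon of ACTA2 on the other strand away from the last 500 bases of FAS coding transcripts. ACTA2 (smooth muscle actin) also rose, with a log2 change of 3.49 (edgeR adjusted p = 6.08e-11), and the use of strand in counting is not given in the sources used here.

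The 4 receptors of TRAIL are encoded next to each other on chromosome 8, in the order TNFRSF10B, TNFRSF10C, TNFRSF10D and TNFRSF10A, and they differed in response. Counts were not divided by transcript length, so the ratios of 2 genes below serve only to compare groups. TNFRSF10B, the DR5 gene, stood at 483.7, 465.3 and 467.4 scaled CPM in depleted libraries, against 108.3, 107.9 and 115.8 in replete libraries. The libraries of each group lay close together and far from the other group, with means of 472 ± 10.1 in depleted and 111 ± 4.43 in replete cells (SD, n = 3 each). The log2 fold change was 2.09 (SE 0.07, edgeR adjusted p = 2.37e-11), a 4.27-fold higher level. The last 500 bases of TNFRSF10B transcripts overlap RHOBTB2, a neighbour on the other strand. RHOBTB2 rose too, at 173, 148 and 157 scaled CPM in depleted against 49.9, 46.6 and 54.9 in replete libraries (log2 fold change 1.66, edgeR adjusted p = 2.76e-09), and whether the pair shared counts was not tested.

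TNFRSF10A, the DR4 gene, was sparsely counted. It had 33, 35 and 25 counts in depleted libraries, against 22, 14 and 14 in replete libraries, or 3.26, 4.38 and 3.12 against 2.25, 1.64 and 1.72 scaled CPM. The groups did not overlap, as was so for 80.9% of all genes tested (39.9% with the depleted libraries higher and 41.0% lower), but the lowest depleted library, at 3.12, was close to the highest replete library, at 2.25. The log2 fold change of TNFRSF10A was 0.92 (SE 0.27, edgeR adjusted p = 0.00760). Within each library, TNFRSF10B had 146, 105 and 147 counts per TNFRSF10A count in depleted, against 47.2, 63.6 and 65.0 in replete cells. This within-library ratio, which does not depend on scaling, was higher in all 3 depleted libraries by 1.18 on the log2 scale (exact two-sided permutation test, p = 0.10, the smallest that 3 against 3 libraries allow, 0.12 adjusted over 6 ratios).

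Of the decoys, TNFRSF10D was measured and TNFRSF10C was barely detected. TNFRSF10D, which encodes DcR2, had 158, 135 and 108 counts in depleted libraries, against 25, 8 and 24 in replete libraries, or 15.6, 16.9 and 13.5 against 2.55, 0.937 and 2.95 scaled CPM. The groups were well apart, and replete replicate 2 was the lowest library. The log2 fold change was 2.82 (SE 0.26, edgeR adjusted p = 4.57e-07), number 499 from the top. TNFRSF10C, which encodes the membrane-anchored decoy DcR1, had 0, 2 and 0 counts in depleted libraries and 2, 1 and 1 in replete libraries. Its ratio from the summed counts, scaled by library totals, was 0.433 with an exact 95% counting interval of 0.0391 to 3.02, so a difference was not detectable at this depth. Counts of TNFRSF10A and TNFRSF10B together per count of TNFRSF10C and TNFRSF10D together were 31.1, 27.3 and 34.8 in depleted, against 39.4, 98.5 and 37.5 in replete cells. The ratio of the signalling to the decoy receptors was thus lower in all 3 depleted libraries, by -0.77 on the log2 scale (exact permutation test, p = 0.10, adjusted 0.12), and by -0.31 without replete replicate 2. With 5 counts in place of 0.5 added to each sum the difference was -0.48 and the groups overlapped (exact permutation test, p = 0.20). No stretch of 50 bases in the last 500 bases of TNFRSF10A, TNFRSF10C or TNFRSF10D transcripts occurs in a transcript of another gene, and the 52 of 902 such stretches of TNFRSF10B that do occur elsewhere are in no other of the 10 genes. For CASP8 and CFLAR, 72 of 3086 and 20 of 4632 such stretches occur in transcripts of genes outside the 10, so reads from these stretches are uncertain.

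TNFRSF1A and TNFRSF12A went in opposite directions. TNFRSF1A, the gene of TNFR1, stood at 55.8, 60.6 and 61.2 scaled CPM in depleted libraries, against 166, 177 and 182 in replete libraries. Of the 5 death and decoy receptors tested among the 10 genes, TNFRSF1A was the single one that fell. Its log2 change was -1.56 (SE 0.08, edgeR adjusted p = 1.40e-09), a level 2.96-fold lower in depleted cells and number 1844 from the bottom. The death receptor gene TNFRSF21, outside the 10, fell too (log2 fold change -0.78). TNFRSF12A, the Fn14 gene, stood at 1241, 1037 and 1268 scaled CPM in depleted libraries, against 60.0, 58.9 and 52.2 in replete libraries. Depleted replicate 2 was again the lowest of its group, but still far above all replete libraries. The means of TNFRSF12A were 1182 ± 126 in depleted and 57.1 ± 4.22 in replete cells (SD, n = 3 each). The log2 fold change was 4.37 (SE 0.10, edgeR adjusted p = 1.07e-12), a 20.7-fold higher level and number 159 from the top of all genes tested. CLDN6, whose exons overlap TNFRSF12A on the other strand away from its last 500 bases, had 17, 10 and 10 counts in depleted and 0, 0 and 1 in replete libraries.

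TNFRSF12A and FAS were also set against TNFRSF1A within each library, as ratios with a shared denominator. TNFRSF12A had 22.2, 17.1 and 20.7 counts per TNFRSF1A count in depleted libraries, against 0.363, 0.333 and 0.287 in replete libraries, a difference of 5.93 on the log2 scale. FAS had 0.530, 0.356 and 0.518 counts per TNFRSF1A count in depleted libraries, against 0.0280, 0.0268 and 0.0145 in replete libraries, a difference of 4.38. Both ratios were higher in all 3 depleted libraries (exact two-sided permutation tests, p = 0.10 each, adjusted 0.12). FAS and TNFRSF12A were higher and TNFRSF1A lower in every depleted library, so this separation was fixed by those levels and is no further evidence.

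**Figure D1:**
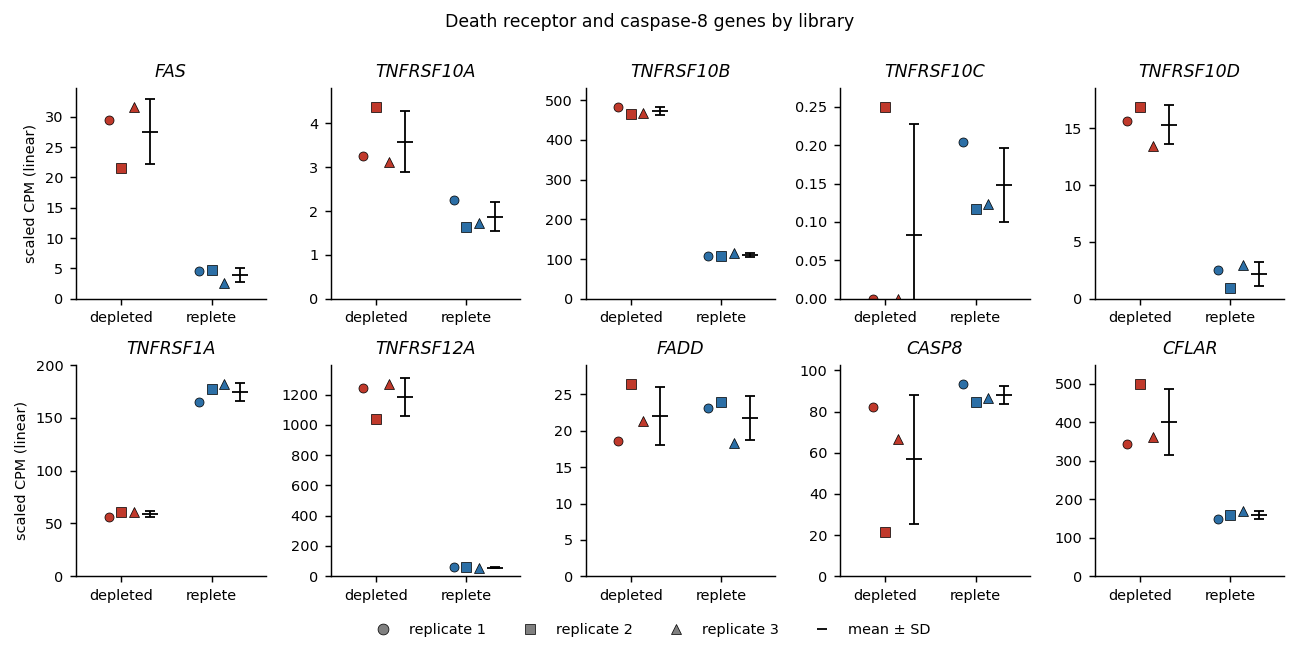
Level of each of the 10 genes by library in scaled CPM on a linear axis from 0, with a scale of its own per gene. Symbols are single libraries and bars the mean ± SD of 3; TNFRSF12A stands at 1037 to 1268 in depleted and 52.2 to 60.0 in replete libraries, and CASP8 at 21.6 in depleted replicate 2 lies far below the other libraries.

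Downstream of the receptors, FADD did not differ detectably. FADD, the adaptor that links death domains to caspase-8, stood at 18.6, 26.4 and 21.3 scaled CPM in depleted libraries, against 23.2, 23.9 and 18.3 in replete libraries. The groups overlapped, and the log2 fold change was 0.01 (SE 0.15, edgeR adjusted p = 0.948), with a negative sign under library totals (-0.22, adjusted p = 0.20).

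CASP8 was lower on average in depleted cells, but 1 library set the size of the difference. CASP8 had 831, 173 and 535 counts in depleted libraries, against 914, 724 and 704 in replete libraries, or 82.1, 21.6 and 66.7 against 93.3, 84.8 and 86.5 scaled CPM. The groups did not overlap, although depleted replicate 1 lay just under the lowest replete library and depleted replicate 2 far under all others. The log2 fold change of CASP8 was -0.63 (SE 0.51, edgeR adjusted p = 0.312) and did not pass. Without depleted replicate 2 it was -0.23 and passed (adjusted p = 0.00674, with 0.00674 to 0.450 over the alternatives). Of 8006 genes with a mean of at least 10 scaled CPM in depleted cells, 97 (1.21%) had in depleted replicate 2 at most 0.5 times the lower of the other depleted libraries, and 29 lay as low as CASP8 or lower. In depleted replicates 1 and 3 no gene of these 8006 lay at 0.5 times or less of the lower of the other depleted libraries.

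CFLAR rose in every depleted library. CFLAR, the c-FLIP gene, stood at 342, 498 and 362 scaled CPM in depleted libraries, against 149, 159 and 170 in replete libraries. The groups were apart, and depleted replicate 2, which had the least CASP8, had the most CFLAR. The log2 fold change was 1.33 (SE 0.14, edgeR adjusted p = 1.19e-05), a 2.51-fold higher level, and it was 1.15 without depleted replicate 2. CFLAR, CASP10 and CASP8 are neighbours on chromosome 2, and CASP10, which encodes the closest caspase relative of caspase-8, had a log2 change of 0.20 (edgeR adjusted p = 0.269). The antisense gene CFLAR-AS1 overlaps the last 500 bases of CFLAR transcripts and had 55, 22 and 24 counts in depleted and 14, 23 and 13 in replete libraries, few beside the 2902 to 3983 and 1356 to 1459 counts of CFLAR.

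Counts of the regulator per count of the protease were higher in every depleted library. CFLAR had 4.17, 23.0 and 5.42 counts per CASP8 count in depleted libraries, against 1.596, 1.87 and 1.97 in replete libraries. The difference was 2.15 on the log2 scale (exact two-sided permutation test, p = 0.10, the smallest possible, adjusted 0.12) and 1.40 without depleted replicate 2, with all 3 depleted libraries above all replete ones. CFLAR was higher and CASP8 lower in every depleted library, so this separation was fixed by those levels and is no further evidence. The ratio of FADD to CASP8 counts was 0.227, 1.22 and 0.320 in depleted and 0.249, 0.282 and 0.212 in replete libraries. These groups overlapped (exact permutation test, p = 0.30, adjusted 0.30), and the log2 difference of 0.86 was 0.13 without depleted replicate 2.

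**Figure D2:**
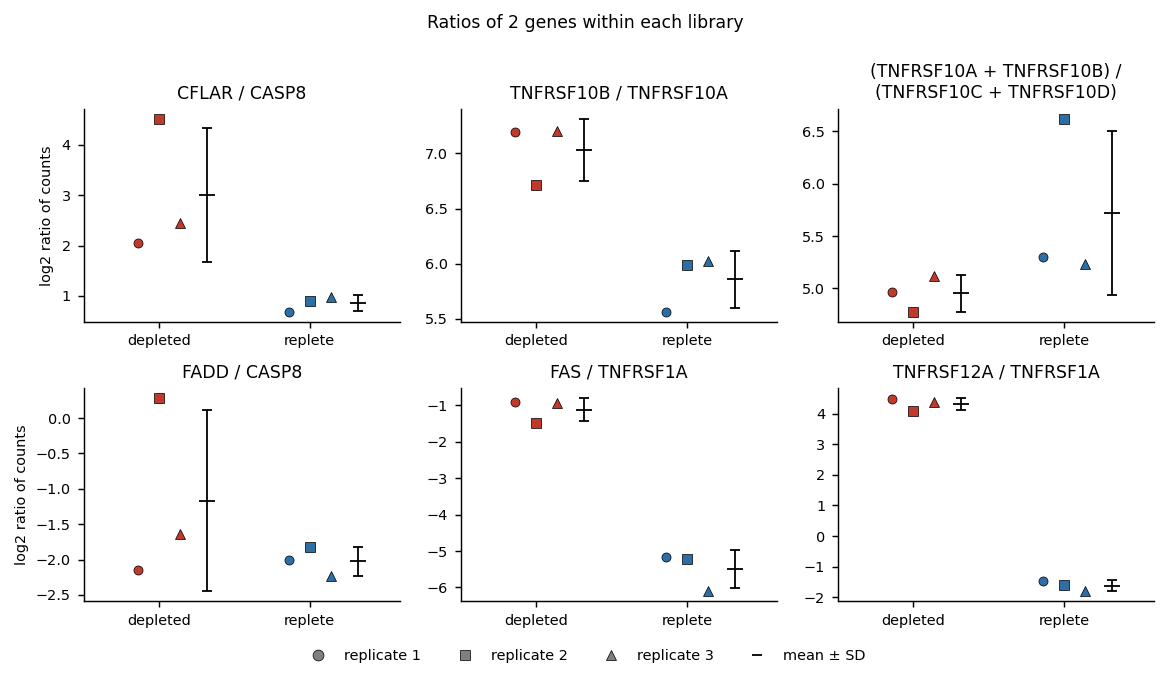
Log2 ratio of the counts of 2 genes, or of 2 sums of genes, within each library, for 6 ratios. Symbols are single libraries and bars the mean ± SD of 3; CFLAR per CASP8 lies at 2.06 to 4.52 in depleted and 0.67 to 0.98 in replete libraries, the highest value being depleted replicate 2.

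**Figure D3:**
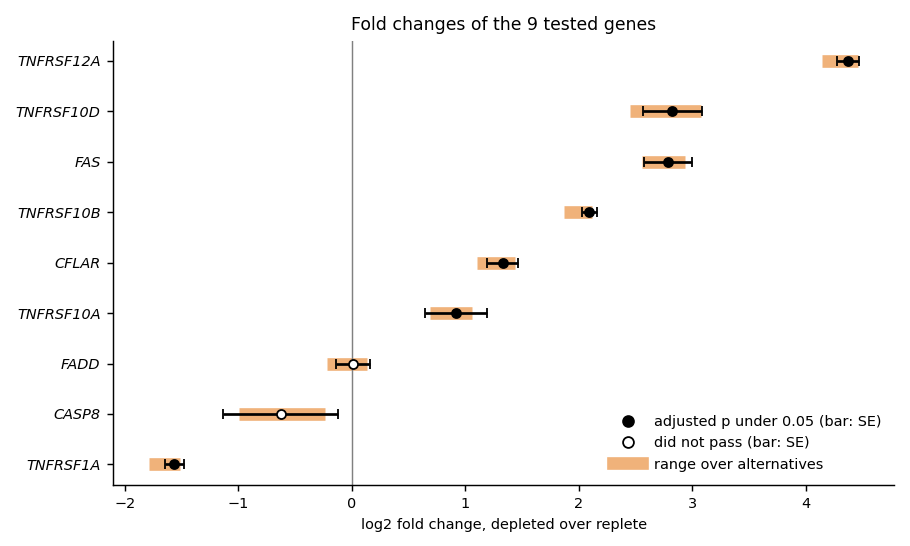
Log2 fold change, depleted over replete, of the 9 tested genes with its SE, and the range of the value over the alternative settings as a wide band. Filled points passed an adjusted p of 0.05; the bands of FADD reach both sides of 0, and those of the 7 genes that passed stay on one side.

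The rest of the pathway was read from 6 lists of 52 genes, of which 42 could be tested. Here 18 rose, 18 fell and 6 did not pass, with a median log2 fold change of -0.08, so the counts in either direction were close to the shares over all genes given above. Ligand transcripts were scarce. FASLG, the FAS ligand, had 0 counts in depleted and 1 in replete libraries, TNFSF10 (TRAIL) had 5 and 2, and TNFSF15, the ligand of the death receptor DR3, had 1 and 2 summed over a group. TNF had 18 counts in depleted and 2 in replete libraries, a ratio of 7.79 scaled by library totals (95% counting interval 1.86 to 69.2). LTA, lymphotoxin alpha, had 21 counts in depleted and none in replete libraries, with 4.51 as the lower end of the exact 95% counting interval of the ratio. TNFSF12, the gene of the TNFRSF12A ligand TWEAK, was the single ligand with enough counts to test and fell. TNFSF12 stood at 0.988, 0.250 and 1.12 scaled CPM in depleted libraries, against 7.96, 5.27 and 6.02 in replete libraries (log2 fold change -2.99, edgeR adjusted p = 4.57e-06), while the receptor gene TNFRSF12A rose.

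Of 6 other receptors, 3 could be tested, of which 2 fell and none rose, beside 39.4% and 39.1% of all genes tested. TNFRSF1B, the gene of TNFR2, which has no death domain, had 1, 0 and 1 counts in depleted libraries, against 42, 60 and 42 in replete libraries. The ratio from the summed counts, scaled by library totals, was 0.0120 (95% counting interval 0.00144 to 0.0442). TNFRSF21, the death receptor DR6, fell to 8.19 ± 1.08 scaled CPM in depleted cells, against 13.99 ± 1.58 in replete cells (SD, n = 3 each, log2 fold change -0.78, edgeR adjusted p = 0.000563). TNFRSF11B, osteoprotegerin, a soluble decoy for TRAIL, did not pass (log2 fold change -0.40, edgeR adjusted p = 0.204). Its depleted replicate 2 was low, at 8.76 against 21.5 and 17.2 scaled CPM in the other depleted libraries.

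Genes of the receptor-bound complexes were split, with 8 of 15 higher, 4 lower and 3 that did not pass (median log2 fold change 0.59). Over all genes tested, 39.1% rose and 39.4% fell. BIRC2, the ubiquitin ligase cIAP1, which is recruited with TRAF2 to TNF receptors, rose to 514 ± 7.49 scaled CPM in depleted cells, against 100.5 ± 1.74 in replete cells (SD, n = 3 each, log2 fold change 2.35, edgeR adjusted p = 7.13e-12). CYLD, a deubiquitinase that removes chains from RIPK1, rose by 2.67 on the log2 scale. TRADD, the first adaptor of TNFR1, stood at 6.32, 6.51 and 6.60 scaled CPM in depleted libraries, against 16.4, 18.4 and 14.6 in replete libraries (log2 fold change -1.35, edgeR adjusted p = 2.67e-06), so both TNFRSF1A and this adaptor fell. RIPK1, which acts with TRADD at TNFR1, did not pass (log2 fold change -0.20, edgeR adjusted p = 0.225). TRAF5, an adaptor of several TNF receptors, fell by 3.24.

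Among 11 partners and regulators of caspase-8, 4 rose, 5 fell and 2 did not pass (median log2 fold change 0.04). These counts are near the shares of all genes tested, of which 39.1% rose and 39.4% fell. PEA15, a death effector domain protein that binds FADD and caspase-8, rose to 826 ± 132 scaled CPM in depleted cells, against 89.1 ± 8.01 in replete cells (SD, n = 3 each, log2 fold change 3.21, edgeR adjusted p = 7.16e-10). ITCH, a ubiquitin ligase reported to target c-FLIP, rose by 1.30, whereas HIP1, an endocytic adaptor, fell by 2.49 and CASP8AP2 (FLASH), a caspase-8-binding protein with a role in histone RNA processing, fell by 1.19.

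Downstream of caspase-8, 6 of 11 execution genes rose and 5 fell (median log2 fold change 0.30), beside 39.1% and 39.4% of all genes tested. However, only 4 rose with library totals, with upper quartile factors, at a mean CPM of at least 10 or without replete replicate 2. CYCS, cytochrome c, rose by 0.82 and DIABLO, the mitochondrial antagonist of IAP proteins, by 1.23. CASP6, an executioner caspase, stood at 3.46, 3.88 and 3.12 scaled CPM in depleted libraries, against 18.3, 17.9 and 16.6 in replete libraries (log2 fold change -2.33, edgeR adjusted p = 2.22e-08). DFFB, the nuclease that cuts DNA in apoptosis, fell by 3.03. Of the necroptosis genes, RIPK3 and ZBP1 had no count in any library, which allows at most the 3-count level given above, and MLKL, the pore-forming effector, fell to 0.906 ± 0.516 scaled CPM in depleted cells, against 9.28 ± 0.480 in replete cells (SD, n = 3 each, log2 fold change -3.37, edgeR adjusted p = 1.82e-07).

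**Figure D4:**
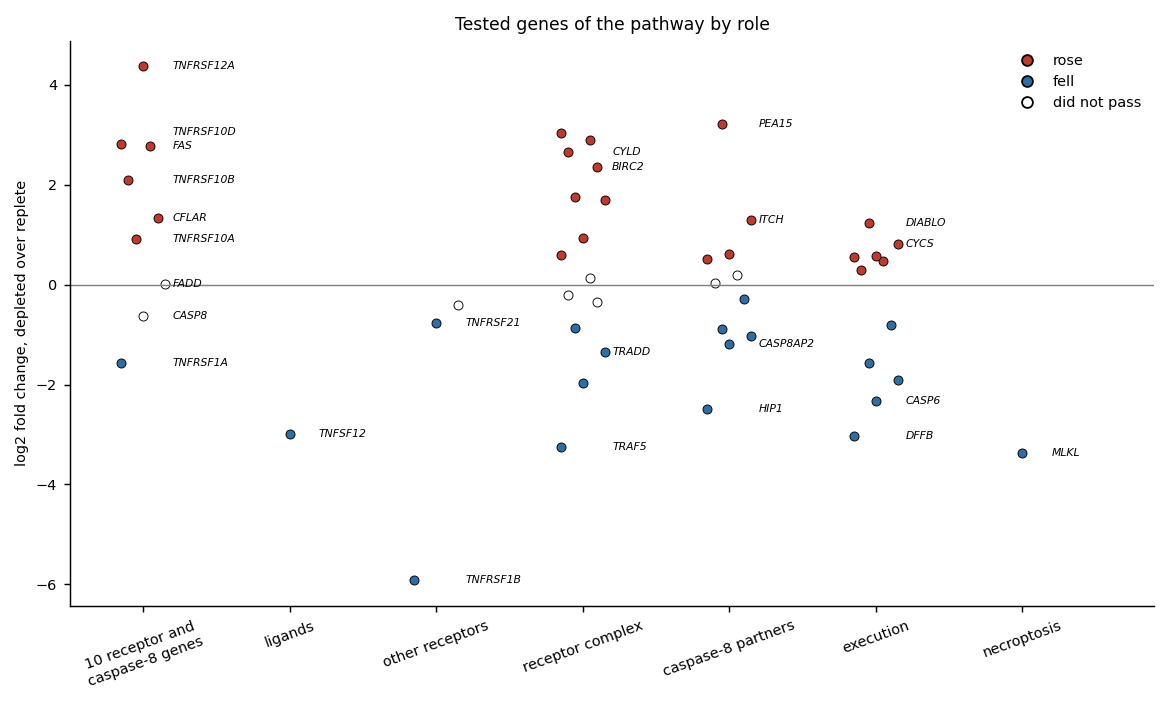
Log2 fold change, depleted over replete, of every tested gene among the 10 receptor and caspase-8 genes and the 6 lists, 1 point per gene, coloured by whether it rose, fell or did not pass. Points of the receptor complex, caspase-8 partner and execution lists lie on both sides of 0, and TNFRSF1B is the lowest point.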

How the data were processed

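The authors deposited raw counts per gene symbol, 1 library per file, and the values are whole numbers whose totals differ between libraries. Bowtie2, edgeR and hg19 are named in the submitters' processing notes with no role; the counter, strand setting and annotation are not given in the sources used here. Per the labels, 500 ng of total RNA entered a QuantSeq 3′ library. Entries of a symbol were summed (286 symbols, none of the 10 genes). Genes passing filterByExpr (minimum count 10, minimum total 15) were scaled by TMM factors (0.917 to 0.929 in depleted, 1.08 to 1.09 in replete libraries) and tested by robust quasi-likelihood in edgeR 4.0.16 (R 4.3.3), two-sided, with Benjamini-Hochberg adjustment over all 12739 genes. SE is the log2 fold change divided by the root of the F statistic.

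Ratios of genes within a library used counts plus 0.5 and exact permutations (scipy 1.17.1). Ratios from summed counts of 1 gene, with their counting intervals, were scaled by library totals without TMM factors, unlike the fold changes. Exon overlaps came from GENCODE 29 on GRCh38, used for names only since the counts were made on another build, and promoters from RefSeq. The named genes are the 10, all ligands, and per list up to 2 genes that rose and 2 that fell, by smallest p. CASP10, TNFRSF11B, RIPK1, RIPK3, ZBP1 and the genes of the closing paragraph were added after their values were seen. Counted genes whose exons overlap those of the 10 (ACTA2, RHOBTB2, CLDN6 and CFLAR-AS1) and cell type markers are also named. The 10 genes and the lists were chosen with earlier results of these data known. The fit was also tested on simulated counts with 200 planted changes. These are far fewer than the genes that passed in the data, so that test does not cover the scaling used here. Alternatives were DESeq2 1.42.0 and its size factors, library totals, upper quartile factors, no filter, a mean CPM of at least 10, limma-voom (limma 3.58.1), a replicate block, each library left out and, added after seeing the data, the largest entry per symbol.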

Additional observations from a re-analysis of the deposited data

How the results depend on the processing

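Under 15 alternatives the 7 genes that passed kept their direction and an adjusted p under 0.05 wherever they were tested; TNFRSF10A and TNFRSF10D were not tested at a mean CPM of at least 10. The number of the 10 genes that fell was 1 to 2 when 1 library was left out, the second being CASP8 without depleted replicate 2, whose log2 fold change ran from -0.99 to -0.23 over the libraries left out. FADD never passed, and its log2 fold change changed sign with library totals (-0.22), upper quartile factors (-0.20), a mean CPM of at least 10 (-0.088) and limma-voom (-0.0040) and ran from -0.13 to 0.13 with 1 library left out. With no count filter and with DESeq2, 2 ligands, TNF and LTA, rose. A mean CPM of at least 10 removes low genes, and the counts that fell were then 0 ligands, 1 other receptor, 2 complex genes, 3 caspase-8 partners, 3 execution genes, 0 necroptosis genes and 9 over all lists. With the replicate number as a block (replicate block) 4941 genes rose and 4999 fell, and no call among the 10 genes changed. Same-numbered libraries of both groups had correlations of deviations of 0.13, 0.011 and 0.034. Depleted replicates 1 and 3 correlated best with the replete library of their own number, and depleted replicate 2 with replete replicate 3 (0.053). These correlations are small and rest on deviations from means of 3 libraries, so they cannot decide whether the numbers pair the libraries. Depth limits TNFRSF10C and the ligands.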

Other observations

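Within the lists, some genes not described above were chosen after their values were seen. In the list of receptor complex genes, of which 8 of 15 rose and 4 fell while 39.1% of all genes tested rose, BIRC3 (cIAP2), TNFAIP3 (A20), TRAF1 and TRAF2 rose by 2.91, 1.75, 3.03 and 1.70 on the log2 scale. BIRC3 stood at 40.8, 33.9 and 37.1 scaled CPM in depleted libraries, against 3.88, 5.86 and 5.28 in replete libraries. TRAF1 was sparsely counted, with 20, 20 and 19 counts in depleted and 2, 3 and 2 in replete libraries, so the size of its change is uncertain. Of the linear ubiquitin ligase complex, RNF31 fell by 1.96 and RBCK1 fell by 0.87, while SHARPIN did not pass (log2 fold change -0.35, edgeR adjusted p = 0.223). BID, which carries the caspase-8 signal to mitochondria, stood at 10.2, 11.5 and 9.35 scaled CPM in depleted libraries, against 31.5, 32.1 and 28.6 in replete libraries (log2 fold change -1.57).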
